A study of Mus musculus with 8 samples.

Results

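The genes described here are 10 cell cycle inhibitors and regulators of the G1 phase, of 12393 genes that the array names by a single symbol. They were chosen by name, as every probe set whose only gene symbol in the platform annotation is Cdkn1a, Cdkn1b, Cdkn2a, Cdkn2c, Rb1, Ccnd1, Ccnd2, Ccnd3, Cdk4 or Cdk6. The 10 genes had 22 probe sets (sets of short oligonucleotides that read 1 or more transcripts), of 22626 tested: 7 for Ccnd2, 3 each for Ccnd1 and Cdk4, 2 each for Cdkn1a and Cdkn1b, and 1 for each other gene. The arrays measured 4 CD44hi and 4 CD44lo samples on Affymetrix Mouse 430A 2.0. Both groups were purified out of established murine T lymphoma lines and share the same deficiency, that of Snf5, a subunit common to SWI/SNF chromatin remodelling complexes; CD44, the hyaluronan receptor by which they differ, is carried by activated and memory T cells. The labels say neither how many lines there were nor how the Snf5 deficiency arose, nor that replicates 1 to 4 came from separate cultures, and a p-value here therefore reflects array-to-array spread alone, possibly technical.

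Cells pass from G1 into S phase when D-type cyclins, bound to the kinases CDK4 or CDK6, phosphorylate the retinoblastoma protein and so release E2F transcription factors. INK4 inhibitors bind CDK4 and CDK6 directly, whereas CIP/KIP inhibitors bind whole cyclin and kinase complexes, mainly those of CDK2. In Snf5-deficient tumours this pathway has long been studied, because Snf5 is known to act on the expression of p16INK4a (a product of Cdkn2a) and of D cyclins.

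Transcripts of the inhibitor gene Cdkn1a and of Rb1 were lower in CD44hi than in CD44lo cells, and no member was called higher. All 3 probe sets that passed the test were lower in CD44hi: both of Cdkn1a and that of Rb1. The Rb1 call sat at the threshold (limma adjusted p = 0.0453) and held in 4 of 19 alternative analyses. Those of Cdkn1a held in 12 of 17 (1421679_a_at) and 12 of 19 (1424638_at). The other 8 genes did not pass: the remaining CIP/KIP inhibitor Cdkn1b, the INK4 genes Cdkn2a and Cdkn2c, the 3 D cyclins and the kinases Cdk4 and Cdk6. The test was limma on log2 intensity over all 22626 probe sets, with Benjamini-Hochberg adjusted p under 0.05 as the threshold for a called probe set. Of the 22 member probe sets 3 were called lower, where 1.48% of all probe sets were, and 0 were called higher, where 1.64% were (3.12% in either direction). At an unadjusted limma p under 0.05 the member counts were the same, 3 lower and 0 higher, where 6.01% and 5.84% of all probe sets were. With the replicate number as a block they were again 3 and 0, where 2.63% and 2.52% of all probe sets were called (5.15% in either direction). Fewer members were called under most alternatives: 2 lower with median centring, quantile normalization or a trended and robust variance, 1 within numbers 1 and 3 or within 2 and 4, 0 to 2 with 1 array left out (0 without CD44lo replicate 4), and 0 with arrays 1 and 3, and 2 and 4, averaged. Since 2 of the 3 read transcripts of the same gene, they are not independent. The members were also chosen with earlier results of these data known, so the array-wide shares are background and no test of the members. The median difference (CD44hi minus CD44lo) was -0.04 over the member probe sets and -0.0011 over all probe sets, on the log2 scale. In bulk samples such as these, fewer cells with a transcript and less of it per cell cannot be told apart.

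The promoter of Cdkn1a is shown because that gene had the largest difference among the members and is a classic target of p53, the tumour suppressor that halts the cell cycle after DNA damage. RefSeq (GRCm38.p6) gives promoters for 7 of the 10 genes in the table used here (not Rb1, Ccnd1 or Ccnd2), with 2 start sites for Cdkn1a, both on the plus strand of chromosome 17. Each sequence holds the 250 bases before a start site. Capitals mark a match to the p53 response element (2 adjoining half-sites, no spacer, at most 2 mismatches, searched on both strands). No mismatch was allowed at the core C or the core G of either half-site.
Cdkn1a upstream start, chr17:29090729-29090978: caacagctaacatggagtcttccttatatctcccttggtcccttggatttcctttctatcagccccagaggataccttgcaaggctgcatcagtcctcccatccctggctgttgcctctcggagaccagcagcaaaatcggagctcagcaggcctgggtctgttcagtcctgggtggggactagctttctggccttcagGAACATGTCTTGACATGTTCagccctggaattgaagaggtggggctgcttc
Cdkn1a downstream start, chr17:29093519-29093768: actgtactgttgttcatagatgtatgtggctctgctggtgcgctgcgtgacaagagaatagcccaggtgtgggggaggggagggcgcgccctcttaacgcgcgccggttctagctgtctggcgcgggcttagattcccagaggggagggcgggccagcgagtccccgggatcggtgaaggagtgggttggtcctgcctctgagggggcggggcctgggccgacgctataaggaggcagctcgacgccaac
The upstream window holds 1 such match, with 1 mismatch, beginning 51 bases before the start site, and the downstream window holds none. Over all promoters of the same length in the table, 89 of 32851 windows (0.271%) held a match, and among the 11 windows of the members this was the 1 that did. The E2F motif TTNGCGC was found on either strand in 2 of the 11 member windows (1 of Cdkn2a, 1 of Cdk4) and in 5.19% of all windows. The E-box CACGTG, bound by Myc among other factors, was found in the windows of Cdk4 (4 matches) and Cdk6 (1 match), and in 6.02% of all windows. The GC box GGGCGG, bound by Sp1 among others, was found in 7 of the 11 member windows, the downstream one of Cdkn1a included (2 matches), and in 32.7% of all windows. These motifs share no bases in the member windows. A match describes letters, and binding was not measured.

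Several whole-array facts bear on the values. Cd44, the transcript of the receptor that defines the groups, was at 11.44 ± 0.28 in CD44hi and 5.55 ± 0.45 in CD44lo with 1 of its 2 probe sets (log2 intensity, n = 4 each, SD; difference 5.89, limma adjusted p = 3.61e-06), which checks the labels and is no finding. Smarcb1, the gene of Snf5, was at 6.78 ± 0.10 in CD44hi and 6.85 ± 0.21 in CD44lo with 1 probe set, and at 5.35 ± 0.17 in CD44hi and 5.37 ± 0.02 in CD44lo with the other (n = 4 each, SD). Neither was called (limma adjusted p = 0.918 and 0.973), and whether these probes read what the deficiency removes is not known here. Median linear intensities per array were 320.3 to 339.1, and precision is limited by having 4 arrays a group. Of 10 T cell marker genes 0 were called by limma (1 probe set lower at an unadjusted p under 0.05). In both groups Cd3d, Cd3e, Cd3g, Cd8a and Cd8b1 were bright (group means of 13.06 or more), while Thy1 (4.47 in CD44hi, 4.55 in CD44lo) and Cd5 (4.32 in CD44hi, 4.29 in CD44lo) lay below the 25th percentile of all log2 values, 5.27. Deviations from the group means correlated at 0.392 to 0.572 across probe sets between arrays that share a number, so values are given by number too. Arrays 1 and 3 of a group were closer to each other (root mean square difference 0.185 in CD44hi and 0.180 in CD44lo, log2) than any other pair of the same group (0.314 to 0.495 in CD44hi, 0.203 to 0.338 in CD44lo).

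**Figure D1:**
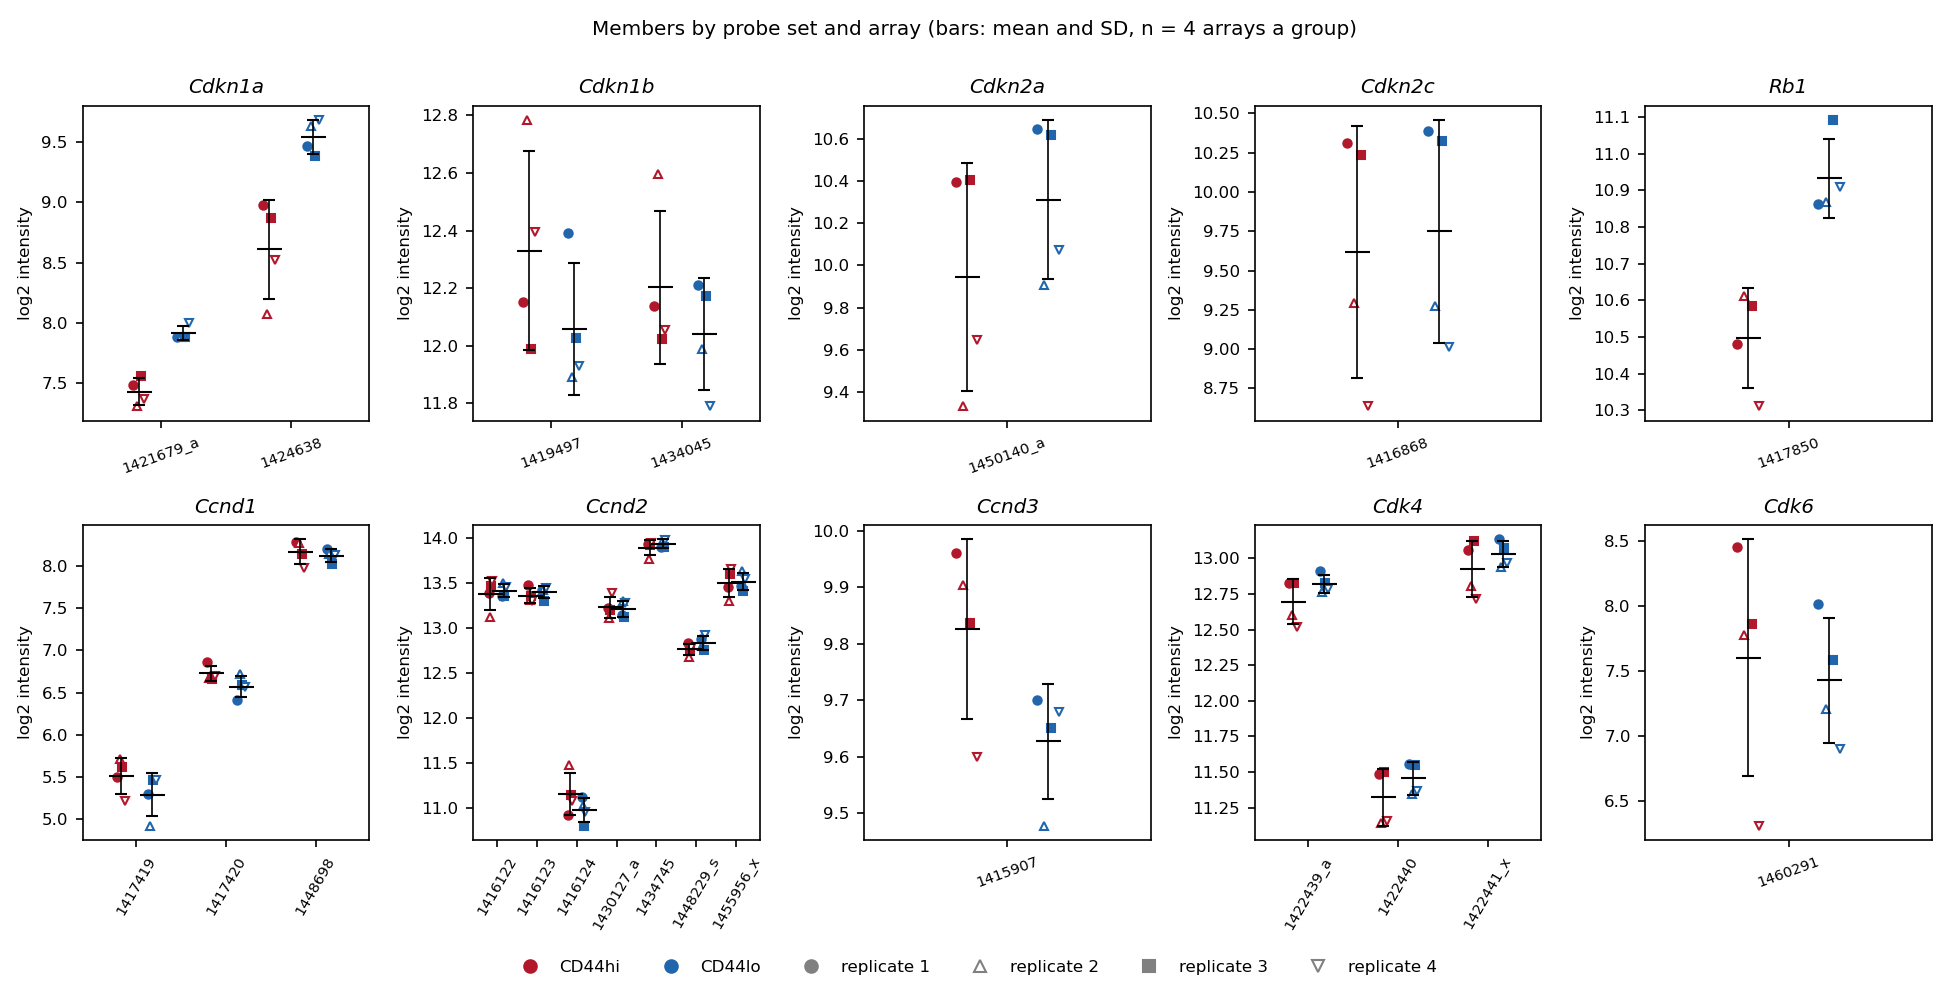
Log2 intensity of every member probe set (x axis) on each array, 1 panel a gene, with CD44hi in red left of CD44lo in blue. Symbols give the replicate number, open for numbers 2 and 4, and bars the mean and SD of 4 arrays. The 4 CD44hi arrays lie below the 4 CD44lo arrays for both Cdkn1a probe sets and for Rb1, and the groups overlap in all other panels.

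Of the CIP/KIP inhibitors, Cdkn1a codes for p21, an inhibitor of cyclin and CDK2 complexes. With probe set 1424638_at its log2 intensity was 8.98, 8.07, 8.87 and 8.52 in CD44hi replicates 1 to 4, against 9.47, 9.64, 9.39 and 9.68 in CD44lo replicates 1 to 4. The groups did not overlap. CD44hi replicate 2 was the lowest of all arrays. The mean was 8.61 ± 0.41 in CD44hi and 9.54 ± 0.14 in CD44lo (n = 4 each, SD), so the level in CD44hi was 0.524 of that in CD44lo (log2 difference -0.93, SE 0.19, limma adjusted p = 0.0314). With probe set 1421679_a_at Cdkn1a was at 7.48, 7.31, 7.56 and 7.37 in CD44hi replicates 1 to 4, against 7.88, 7.88, 7.88 and 8.003 in CD44lo replicates 1 to 4. This probe set too separated the groups fully, with a level in CD44hi of 0.715 of that in CD44lo (log2 difference -0.48, SE 0.08, limma adjusted p = 0.0125). A two-sided exact permutation test gave p = 0.0286 for each of these probe sets, the lowest value possible with 70 assignments of 8 arrays.

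The 2 Cdkn1a probe sets had the same direction at each replicate number and different sizes. For 1424638_at the CD44hi minus CD44lo difference was -0.49 at number 1, -1.56 at number 2, -0.51 at number 3 and -1.16 at number 4. For 1421679_a_at it was -0.40, -0.57, -0.33 and -0.64 at numbers 1 to 4. In both, numbers 2 and 4 had the larger differences, and whether the difference depends on the number was not tested. Within numbers 1 and 3 alone 1424638_at differed by -0.50 (limma adjusted p = 0.0395) and within numbers 2 and 4 alone by -1.36 (0.0186), while 1421679_a_at differed by -0.36 and -0.61 and missed the threshold in both (0.0637 and 0.0597). Each of these fits has 2 arrays a group. Their p-values reflect the spread between paired arrays that may be repeats of 1 preparation. The call of 1424638_at was lost without CD44hi replicate 4 or any 1 CD44lo array (adjusted p 0.0694 to 0.109), and that of 1421679_a_at without CD44lo replicate 4 (adjusted p = 0.0516), with differences of -0.75 to -1.05 and -0.44 to -0.53 over all arrays left out in turn. If numbers 1 and 3, and 2 and 4, are averaged as repeats of a preparation, neither is called (limma adjusted p = 0.614 for 1424638_at and 0.54 for 1421679_a_at). With the pair as a block as well, neither was called (limma adjusted p = 0.17 for 1424638_at and 0.167 for 1421679_a_at). Over all probe sets the averaged fit called 14 higher and 2 lower, or 209 and 174 with the block.

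Cdkn1b codes for p27, a CIP/KIP inhibitor that accumulates in resting T cells. With probe set 1419497_at it was at 12.15, 12.78, 11.99 and 12.40 in CD44hi replicates 1 to 4, against 12.39, 11.89, 12.03 and 11.93 in CD44lo replicates 1 to 4. The groups overlapped: CD44hi was higher at numbers 2 and 4 and lower at numbers 1 and 3. The log2 difference was 0.27 (95% interval -0.14 to 0.68, limma adjusted p = 0.686). Probe set 1434045_at changed sign with the number in the same way, with differences of -0.07, 0.61, -0.15 and 0.27 at numbers 1 to 4 and a mean of 0.16 (95% interval -0.18 to 0.50, limma adjusted p = 0.813).

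**Figure D2:**
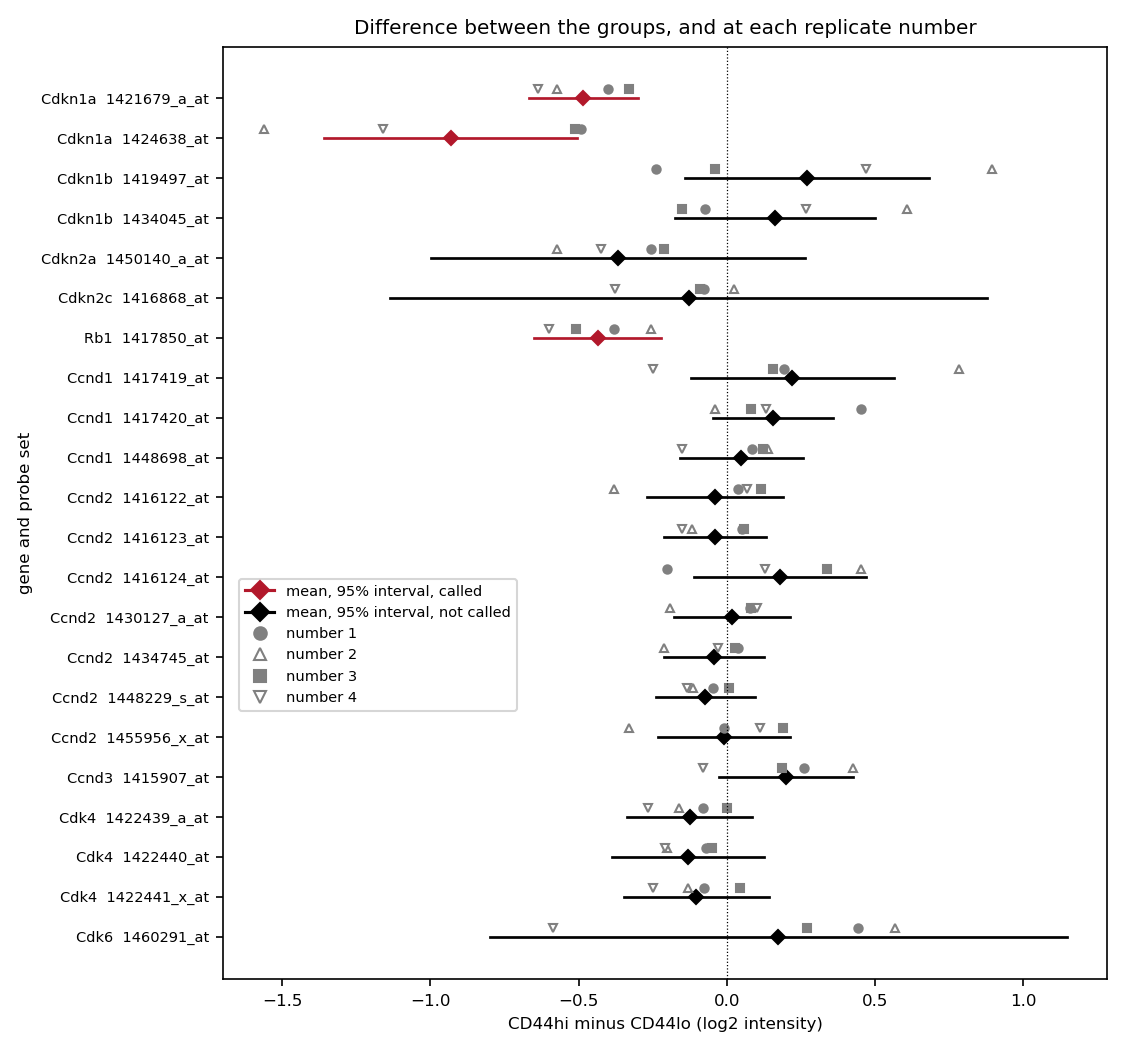
Difference CD44hi minus CD44lo in log2 intensity (x axis) for each member probe set (y axis). Diamonds and lines give the limma estimate with its 95% interval, red where called, and grey symbols the difference at each replicate number. Both Cdkn1a probe sets and Rb1 lie left of 0 with all 4 numbers, and the widest intervals are those of Cdkn2c, Cdk6 and Cdkn2a.

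Of the INK4 inhibitors, Cdkn2a codes for p16INK4a and, from another first exon and reading frame, for p19ARF, which stabilises p53. Which of these transcripts its probe set reads is not known here. It was at 10.39, 9.33, 10.40 and 9.65 in CD44hi replicates 1 to 4, against 10.65, 9.91, 10.62 and 10.07 in CD44lo replicates 1 to 4. The groups overlapped, since in each group arrays 2 and 4 were well below arrays 1 and 3. At the same number CD44hi was lower every time, with differences of -0.25, -0.57, -0.21 and -0.43 (log2 difference -0.37, 95% interval -0.996 to 0.263, limma adjusted p = 0.744). With the replicate number as a block the interval was -0.57 to -0.16, and the probe set still missed the threshold (limma adjusted p = 0.0721).

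Cdkn2c codes for p18INK4c, an inhibitor of CDK4 and CDK6 that restrains T cell proliferation in mice. It was at 10.31, 9.30, 10.24 and 8.64 in CD44hi replicates 1 to 4, against 10.39, 9.27, 10.33 and 9.01 in CD44lo replicates 1 to 4. Its level followed the replicate number in both groups: the mean of arrays 1 and 3 was 2.47 times that of arrays 2 and 4 in CD44hi and 2.32 times in CD44lo (geometric means). The difference between the groups was -0.13 (95% interval -1.14 to 0.88, limma adjusted p = 0.969), or -0.34 to 0.08 as an interval with the replicate block (adjusted p = 0.517). A difference between CD44hi and CD44lo as large as that between the numbers lies outside the blocked interval.

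Rb1 codes for the retinoblastoma protein, the main substrate of cyclin D kinases in G1. It was at 10.48, 10.61, 10.58 and 10.31 in CD44hi replicates 1 to 4, against 10.86, 10.87, 11.09 and 10.91 in CD44lo replicates 1 to 4. The groups did not overlap, and CD44hi was lower at each number (differences of -0.38, -0.26, -0.51 and -0.60). The level in CD44hi was 0.739 of that in CD44lo (log2 difference -0.44, SE 0.09, limma adjusted p = 0.0453, exact permutation p = 0.0286). This call sat at the threshold. It was lost with median centring (limma adjusted p = 0.0635), with quantile normalization (0.0503), with a trended and robust variance (0.0641), with numbers 1 and 3 or 2 and 4 alone (0.0976 and 0.223), with the arrays averaged in those pairs (0.539), and whichever 1 array was left out (0.0577 to 0.136). The difference itself stayed between -0.37 and -0.47 in all of these.

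Over the 22 probe sets, the 3 of Cdkn1a and Rb1 were those whose CD44hi values all lay below the CD44lo values, where 4.61% of all probe sets did so, and 0 lay wholly above, where 4.73% did (9.34% in either direction). CD44hi was lower at all 4 numbers for 5 of the 22 (these 3, Cdkn2a and 1 probe set of Cdk4), where 14% of all probe sets were, and higher at all 4 for 0, where 13.2% were.

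The D cyclins activate CDK4 and CDK6 in response to growth signals. Ccnd2, a D cyclin that T cells induce on activation, was measured by 7 probe sets, of which 6 lay between 12.68 and 13.98 on every array. With 1434745_at it was at 13.94, 13.76, 13.92 and 13.95 in CD44hi replicates 1 to 4, against 13.90, 13.97, 13.89 and 13.98 in CD44lo replicates 1 to 4. The groups overlapped for all 7 probe sets, and 5 of the 7 differences were below 0. They ran from -0.07 to 0.18 (limma adjusted p 0.717 to 0.990), and the 95% intervals of all 7 lay between -0.27 and 0.47.

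Ccnd3, a D cyclin that developing T cells need, was at 9.96, 9.90, 9.84 and 9.60 in CD44hi replicates 1 to 4, against 9.70, 9.48, 9.65 and 9.68 in CD44lo replicates 1 to 4. CD44hi was the higher group at numbers 1 to 3 and the lower at number 4. The log2 difference was 0.20 (95% interval -0.03 to 0.42, limma adjusted p = 0.518). Ccnd1, which lymphocytes usually express little of, had 3 probe sets with differences of 0.22, 0.16 and 0.05 (limma adjusted p 0.602 to 0.935). The dimmest of them, 1417419_at, lay between 5.22 and 5.71 in CD44hi and between 4.93 and 5.47 in CD44lo, near the 25th percentile of all values (5.27).

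Cdk4 and Cdk6 code for the kinases that D cyclins activate. The 3 Cdk4 probe sets had differences of -0.13, -0.13 and -0.10 (limma adjusted p 0.735 to 0.848), with 95% intervals between -0.39 and 0.14. With 1422440_at Cdk4 was at 11.49, 11.14, 11.50 and 11.16 in CD44hi replicates 1 to 4, against 11.56, 11.35, 11.55 and 11.37 in CD44lo replicates 1 to 4. In both groups arrays 1 and 3 were above arrays 2 and 4, by 0.34 in CD44hi and 0.20 in CD44lo. Cdk6 was at 8.46, 7.78, 7.86 and 6.31 in CD44hi replicates 1 to 4, against 8.01, 7.21, 7.59 and 6.89 in CD44lo replicates 1 to 4. The group difference changed sign with the number, being 0.44, 0.57 and 0.27 at numbers 1 to 3 and -0.59 at number 4 (log2 difference 0.17, 95% interval -0.80 to 1.15, limma adjusted p = 0.953).

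**Figure D3:**
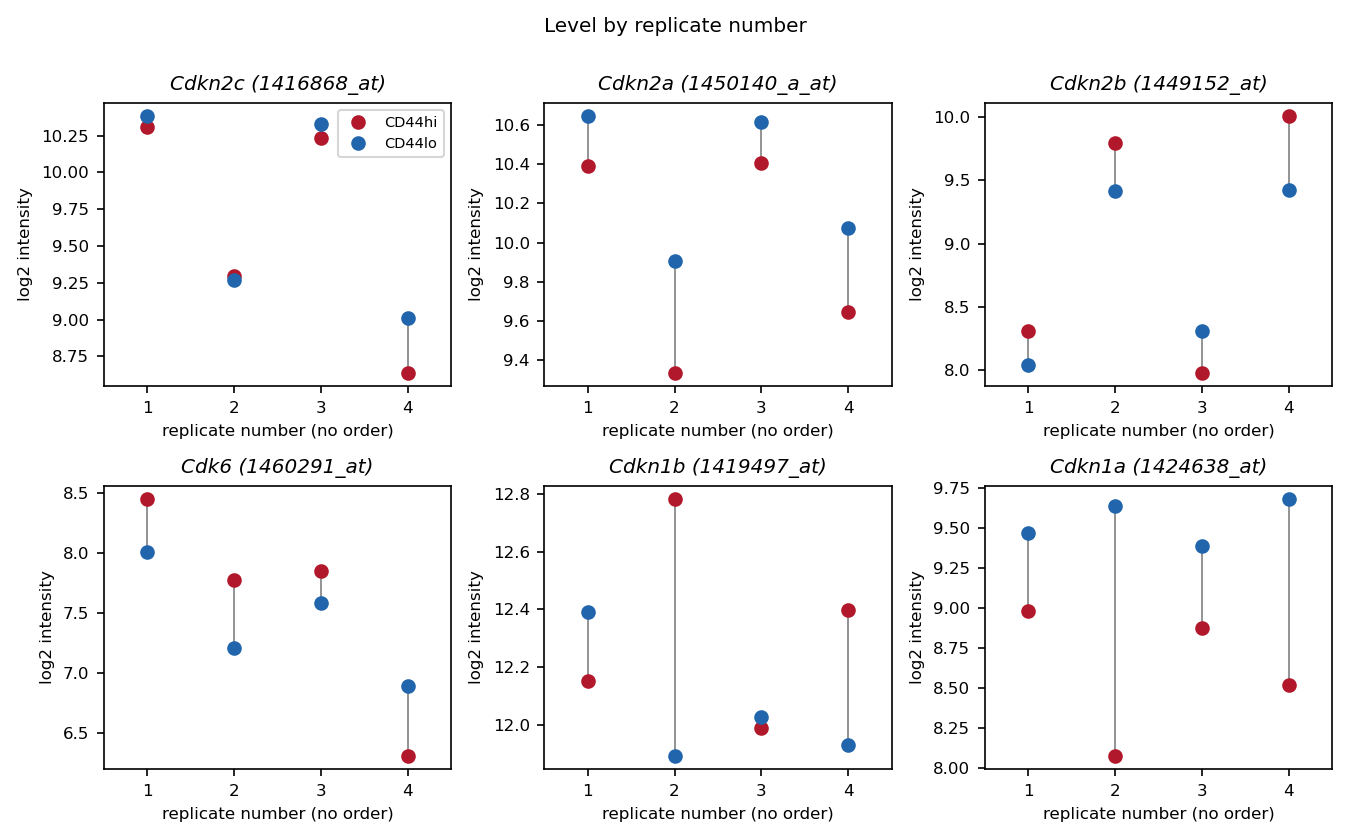
Log2 intensity (y axis) by replicate number (x axis, numbers have no order) for 5 members and the neighbouring INK4 gene Cdkn2b, with CD44hi in red, CD44lo in blue and a line joining arrays of the same number. Cdkn2c, Cdkn2a and Cdk6 are higher on arrays 1 and 3 in both groups, Cdkn2b is lower there, and Cdkn1a is lower in CD44hi at every number.

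For some members arrays differed more by replicate number than between CD44hi and CD44lo. In both groups arrays 1 and 3 lay above arrays 2 and 4 for 6 of the 22 probe sets (Cdkn2a, Cdkn2c, Cdk6 and the 3 of Cdk4), where 16.9% of all probe sets did, and the reverse held for 0, where 16.9% did. For Cdkn2a the mean of arrays 1 and 3 was 1.88 times that of arrays 2 and 4 in CD44hi and 1.56 times in CD44lo, and for Cdk6 it was 2.16 and 1.68 times. Cdkn2b, the INK4 gene next to Cdkn2a and no member, ran the other way, at 8.31, 9.79, 7.98 and 10.01 in CD44hi replicates 1 to 4 and 8.04, 9.42, 8.31 and 9.43 in CD44lo replicates 1 to 4 (difference between the groups 0.22, limma adjusted p = 0.951). The labels do not say what the numbers stand for.

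Other genes of the pathway were taken from 7 lists with 68 measured genes and 125 probe sets. Of these 125, 2 were called higher in CD44hi and 0 lower (limma), where 1.64% and 1.48% of all probe sets were, or 8 and 2 at an unadjusted p under 0.05, where 5.84% and 6.01% were. Of 8 genes of cyclin E and A kinases and their activators (13 probe sets, median difference 0.04) Ccnh alone was called. Ccnh, the cyclin of the CDK-activating kinase, was higher with 1 of its 3 probe sets, at 8.89 ± 0.15 in CD44hi and 8.40 ± 0.15 in CD44lo (n = 4 each, SD; log2 difference 0.49, SE 0.11, limma adjusted p = 0.0471), while the other two differed by 0.20 and 0.13 without passing. Id2, an inhibitor of helix-loop-helix factors whose protein can bind the retinoblastoma protein, was higher with 1 of its 3 probe sets, 1422537_a_at, at 13.13 ± 0.17 in CD44hi and 12.59 ± 0.12 in CD44lo (n = 4 each, SD; log2 difference 0.54, SE 0.11, limma adjusted p = 0.0269), while the other two differed by 0.29 and 0.0005. With 1 array left out in turn, 0 or 1 of the 125 probe sets was called.

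Among 3 other CDK inhibitors 0 were called by limma, or 1 higher and 1 lower at an unadjusted p under 0.05: Cdkn1c, which codes for p57, was at 7.32 ± 0.24 in CD44hi and 6.90 ± 0.14 in CD44lo, and Cdkn2d, which codes for p19INK4d, at 10.49 ± 0.39 in CD44hi and 10.92 ± 0.09 in CD44lo (n = 4 each, SD; limma adjusted p = 0.178 and 0.375). Among 9 pocket protein and E2F genes 0 were called (1 probe set higher at an unadjusted p under 0.05), or the Rb1 relative Rbl2 alone with the replicate block (probe set 1418146_a_at, at 11.67 ± 0.23 in CD44hi and 11.24 ± 0.26 in CD44lo; difference 0.43, limma adjusted p = 0.271, or 0.0416 with the block). The other Rbl2 probe set, 1425981_a_at, differed by 0.25 and was not called (limma adjusted p = 0.47, or 0.0991 with the block). The sign of the Rbl2 difference was opposite to that of Rb1 with both probe sets. Of 8 genes for ubiquitin ligase parts that act on G1 proteins (17 probe sets) 0 were called by limma, also at an unadjusted p under 0.05, with a median difference of -0.11. The 15 regulators that act on the members (29 probe sets, median difference 0.10, Id2 called) included Mdm2, the p53 ubiquitin ligase and itself a p53 target, with differences of 0.26 and 0.09 (limma adjusted p = 0.548 and 0.872), Myc with 0.15 (0.939), and the Polycomb genes Ezh2 with -0.01 (0.987) and Bmi1 with -0.24 and -0.16 (0.496 and 0.497). At an unadjusted limma p under 0.05, 4 of the 29 probe sets were higher and 1 lower, where 5.84% and 6.01% of all probe sets were. Besides Id2 these were Id1 with 0.26 (limma adjusted p = 0.182), Ets2 with -0.28 (0.164) and Tbx3 1448029_at with 0.31 (0.0584). That Tbx3 probe set was dim (4.24 in CD44hi, 3.92 in CD44lo), and the other of Tbx3 differed by -0.06 (0.917).

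Genes downstream of G1 control did not pass. Of 33 probe sets of E2F targets of S phase entry (15 genes), 32 had a difference below 0 and 0 were called by limma, nor were any under an unadjusted p of 0.05. Probe sets of the same gene are not independent. The median difference of the 33 was -0.16 over all arrays (-0.0011 for all probe sets of the array), 0.01 at numbers 1 and 3 and -0.30 at numbers 2 and 4. The lowest was that of Cdc6, a replication licensing factor, with -1.01 and -1.07 at numbers 2 and 4 and 0.04 and -0.0031 at numbers 1 and 3 (mean -0.51, limma adjusted p = 0.842). Of 17 probe sets of mitotic proliferation markers 0 were called (0 at an unadjusted p under 0.05), with a median of 0.12, and Mki67 was at 13.15 ± 0.21 in CD44hi and 13.05 ± 0.28 in CD44lo (n = 4 each, SD).

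**Figure D4:**
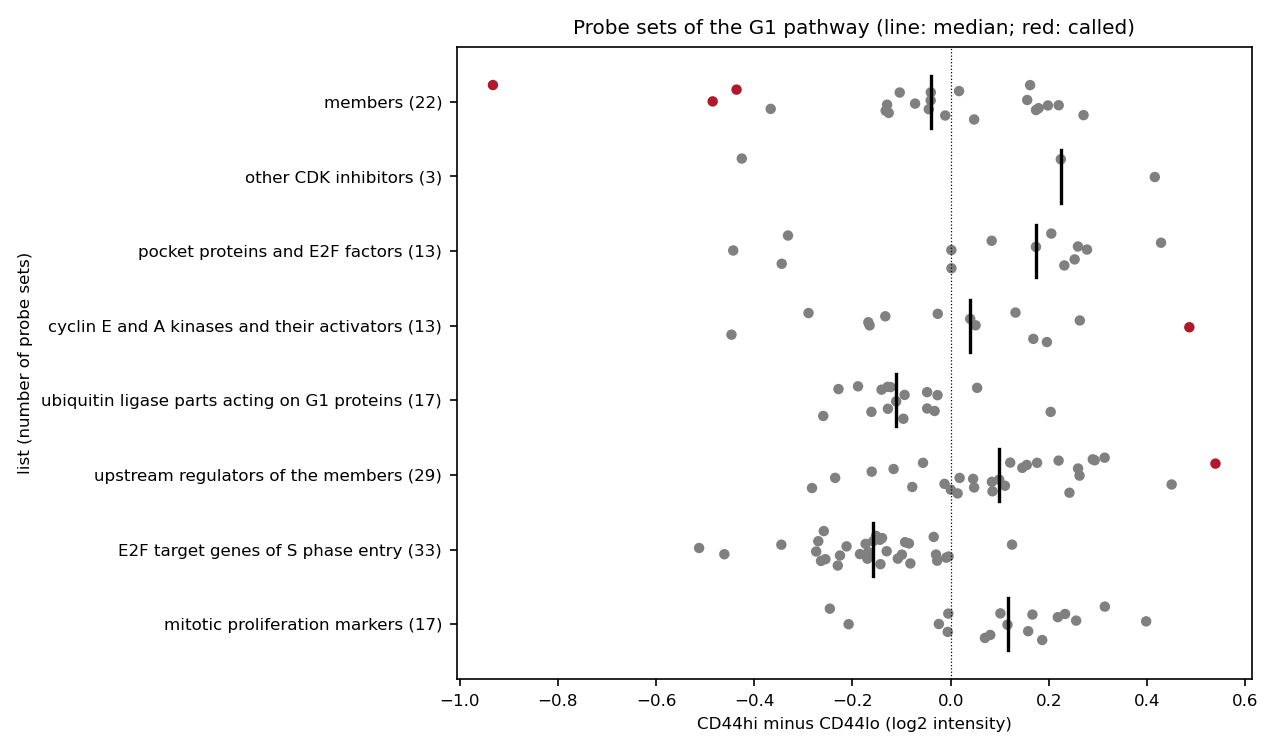
Difference CD44hi minus CD44lo in log2 intensity (x axis) for every probe set of the members and of 7 lists of G1 pathway genes (y axis, with the number of probe sets). Vertical lines are medians and red points are called. Of 33 E2F target probe sets (15 genes) 32 lie below 0 with 0 called. Their median was 0.01 at numbers 1 and 3 and -0.30 at numbers 2 and 4. The 3 called member probe sets lie lowest among the 22.

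The genes most like each called member were those with the smallest root mean square distance between mean-centred log2 profiles over the 8 arrays. For Cdkn1a 1421679_a_at they were the prostaglandin receptor gene Ptger3 (distance 0.0377, CD44hi minus CD44lo -0.50), the transcriptional corepressor gene Nab1 (0.0591, -0.45) and Apip, of methionine salvage (0.062, -0.47). For Cdkn1a 1424638_at they were the transporter gene Slco3a1 (0.108, -0.98), Rcbtb2 (0.121, -1.05) and Mpp2 (0.136, -0.85). For Rb1 they were the utrophin gene Utrn (0.0719, -0.47), the helix-loop-helix gene Hes6 (0.0796, -0.34) and the Ras exchange factor gene Rasgrf1 (0.0941, -0.33), of which Hes6 and Rasgrf1 did not pass the test between the groups (limma adjusted p = 0.0548 and 0.111). Utrn was dim (5.93 in CD44hi, 6.39 in CD44lo). Rasgrf1 (4.92 in CD44hi, 5.25 in CD44lo) lay below the 25th percentile of all log2 values, 5.27. Centring removes the level, and the distance itself selects genes with a similar difference. The probe sets of Cdkn1a had different neighbours.

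RNA quality controls and markers of other cell types were compared between the groups as well. The log2 ratio of 3' to 5' Gapdh control probe sets was 0.816 ± 0.052 in CD44hi and 0.696 ± 0.036 in CD44lo, and that of Actb 0.626 ± 0.152 in CD44hi and 0.498 ± 0.105 in CD44lo (SD over 4 arrays a group). Their exact permutation p, two-sided, was 0.0286 for Gapdh and 0.229 for Actb. Of 7 measured B cell markers Ebf1 alone was called, higher in CD44hi with 3 probe sets, while at an unadjusted p under 0.05 there were 5 probe sets higher and 0 lower, the others being those of Ms4a1, which codes for CD20. Ms4a1 was at 4.99 ± 0.83 in CD44hi and 3.68 ± 0.20 in CD44lo with 1450912_at, without overlap, and at 4.61 ± 0.63 in CD44hi and 3.83 ± 0.17 in CD44lo with 1423226_at (n = 4 each, SD; differences 1.31 and 0.78, limma adjusted p = 0.11 and 0.253). The summed linear intensity of their 11 probe sets was 5010 to 9816 in CD44hi and 273 to 325 in CD44lo, and without Ebf1 that of the other 8 was 220 to 272 in CD44hi and 203 to 210 in CD44lo. The B cell receptor gene Cd79a was at 5.32 in CD44hi and 5.49 in CD44lo, and Cd79b at 4.96 in CD44hi and 4.75 in CD44lo. Of 8 stromal markers Pdgfra alone was called, higher in CD44hi (3 probe sets higher and 1 lower at an unadjusted p under 0.05). Postn was lower in CD44hi and passed with the replicate block (limma adjusted p = 0.0022, or 0.0768 without). Differences of the 13 stromal probe sets ran from -2.40 to 2.97. The summed linear intensity of all 13 was 1107 to 1813 in CD44hi and 1375 to 2829 in CD44lo. Of 8 myeloid and dendritic markers 0 were called by limma (0 at an unadjusted p under 0.05; sums of 320 to 348 in CD44hi and 318 to 340 in CD44lo), and of 4 NK markers 0 were called (1 higher at an unadjusted p under 0.05, Nkg7; sums of 16028 to 19204 in CD44hi and 13583 to 15471 in CD44lo). The part of these in the Cdkn1a and Rb1 differences was not tested.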

How the data were processed

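RNA of 8 samples, 4 CD44hi and 4 CD44lo, was hybridised to 1-colour arrays. Per the labels' protocols, the deposited intensity of each probe set came from Robust Multichip Average (RMA) preprocessing; no version or option of it is given in the sources used here. Values were linear (7.61 to 36128), so log2 was taken with no pseudocount. RMA shrinks differences near background. Groups and replicate numbers came from the sample titles. Of 22690 probe sets 64 controls were left out; of the rest, the platform annotation gives 20380 a single symbol, 691 several symbols and 1555 none. The test was limma 3.58.1 (lmFit, then eBayes; R 4.3.3) on every probe set, with Benjamini-Hochberg adjustment over all 22626. Members and lists were chosen with earlier results of these data known. By rule the text names all members, up to 4 called genes a list and the 3 genes nearest in profile to each called member probe set; other list genes named were picked after their values were seen. Same-numbered arrays deviated together (every correlation over 0.1; arrays 1 with 3 and 2 with 4 across groups also correlated, at 0.371 to 0.521), so a fit with the number as a block was run too, although the labels do not say what a number stands for. Alternatives were other normalizations, filters, probe set choices, variance models, array weights, the block, and arrays left out. Trp53 is not analysed here.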

Additional observations from a re-analysis of the deposited data

Results flagged for a closer look

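In 3 of 44 groups of 4 values examined for the members, 1 array lay far from the other 3. Chance marks about 1 in 20 such groups, and probe sets of a gene can share a transcript. For Cdkn1a (1421679_a_at), CD44lo replicate 4 was at 8.003 and the other CD44lo arrays at 7.88. It lay further from the CD44hi arrays than they did, and without it the adjusted p of this probe set was 0.0516 (limma). For Ccnd1 (1417420_at), CD44hi replicate 1 was at 6.87 and the other CD44hi arrays at 6.67 to 6.69. For Ccnd2 (1434745_at), CD44hi replicate 2 was at 13.76 and the other CD44hi arrays at 13.92 to 13.95.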

How the results depend on the processing

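The 22 member probe sets had 401 values in all under the alternatives. In 374 the call was as reported, in 27 that of Cdkn1a or Rb1 was lost, in 0 one was gained, and 0 called differences changed sign, as 25 uncalled ones did. The averaged fits (numbers 1 and 3, and 2 and 4) were chosen after the data were seen. Against 3 member probe sets called lower, 1 was called within numbers 1 and 3, 1 within numbers 2 and 4, 0 with averaged arrays and 0 with averaged arrays and a block; leaving out 1 array gave 0 to 2, with 0 without CD44lo replicate 4, and 1 without CD44hi replicate 4 or CD44lo replicate 1, 2 or 3. The replicate block changed no member's call (3 lower, 0 higher; Cdkn1a 1421679_a_at adjusted p = 0.0233, 1424638_at 0.0451, Rb1 0.035), and with it 3 pathway probe sets were called. Over all probe sets (371 higher, 334 lower) the counts were 191 and 194 with a mean above the median (fewer probe sets tested), 252 and 220 with 1 probe set a gene (likewise), 571 and 594 with the replicate block, 620 and 656 with array weights, 561 and 561 within numbers 1 and 3, 14 and 2 with averaged arrays, 209 and 174 with averaged arrays and a block, and 256 to 347 higher and 200 to 338 lower with 1 array left out (lower: 214, 211 and 200 without CD44lo replicate 2, 3 or 4). Against 2 called probe sets of the pathway lists there were 1 with 1 probe set a gene, 6 with array weights, 0 and 0 with averaged arrays without and with a block, and 0 to 1 with 1 array left out. Within numbers 2 and 4 the counts over all probe sets were 429 and 361. Except where fewer probe sets were tested, the cause of these changes was not tested.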
